A study of Mus musculus with 12 samples.

Results

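Transcripts of 9 genes of the nuclear lamina and inner nuclear envelope were followed through terminal erythroid differentiation in mouse bone marrow. The genes were chosen by name as the 3 lamin genes Lmna, Lmnb1 and Lmnb2, the inner nuclear membrane proteins Lbr, Emd and Tmpo, the DNA-bridging factor Banf1, and the SUN-domain genes Sun1 and Sun2. All 9 symbols were found among the 29838 genes of the expression table, each with 1 identifier, and all 9 were among the 12994 genes that passed the filter on low values.

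RNA was sequenced from wild-type (WT) erythroblasts sorted from the bone marrow (BM) of 8-week-old male C57BL/6 mice, with 3 libraries for each of 4 stages: proerythroblasts (Pro), basophilic (Baso), polychromatic (Poly) and orthochromatic (Ortho) erythroblasts. No cells carried a transgene or received a treatment, and the stages differed only in the gate used to sort them. Pro cells were taken as CD44 high and Ter119 low, and the other stages were separated by CD44 staining and cell size, after cells positive for CD45, CD11b or GR1 had been left out. The cell type label of Ortho replicates 2 and 3 says only Erythroblast, so both were placed by their titles. The labels do not say whether the libraries of a stage came from separate animals, so the p-values measure the spread between these libraries, which may be technical.

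The nuclear lamina is a meshwork of intermediate filaments under the inner nuclear membrane. A-type lamins are made from Lmna and B-type lamins from Lmnb1 and Lmnb2, and the A-type lamins are known to set much of the stiffness of a nucleus. Lbr tethers B-type lamins and heterochromatin to the membrane, emerin (Emd) and the LAP2 proteins (Tmpo) carry a LEM domain that binds the DNA-bound factor made from Banf1, and Sun1 and Sun2 span the inner membrane and hold the nesprins of the outer membrane, which link the nucleus to the cytoskeleton. In mammals the erythroblast nucleus condenses during these stages and is expelled after the Ortho stage.

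Values are FPKM, the fragments of a gene relative to the length of its transcript and to all mapped fragments of the library. Levels of different genes can be compared only as far as the length used fits the transcripts present, which was not tested. The depth of the libraries is unknown, since FPKM do not give it, and the error of each level is the SD over the 3 libraries of its stage. No 2 libraries held identical values, and libraries of the same stage correlated across genes at 0.973 to 0.984. Hemoglobin genes took 8.45% ± 1.95 of a Pro library's summed FPKM, 35.1% ± 1.79 of a Baso library's, 36.6% ± 1.56 for Poly and 49.6% ± 2.74 for Ortho (SD, n = 3). Since FPKM are relative to all mapped fragments, more hemoglobin RNA can lower the values of other genes. A share of summed FPKM is not a share of fragments, so the size of this effect is unknown and was not tested. The stage labels were checked against 10 erythroid genes at an adjusted p under 0.05 in limma. In Baso against Pro, 6 were higher and none lower, where 14.9% and 42.1% of all genes tested were. In Ortho against Pro, 5 were higher and 3 lower, where 22.7% and 53.2% of all genes were. Alas2, the first enzyme of heme synthesis in red cells, rose from 336 FPKM in Pro to 2221 in Ortho, whereas Klf1, an erythroid transcription factor, fell from 319.8 to 69.3 FPKM. Markers of neutrophils were high in every library, with a summed FPKM over 10 genes of 6925 to 8626 at the Pro stage, 11869 to 13938 at Baso, 15288 to 18118 at Poly and 13590 to 16901 at Ortho, led by S100a8 and S100a9. None of the 10 was at 0 in any stage. In limma, 9 of them were higher in Ortho than in Pro at an adjusted p under 0.05, where 22.7% of all genes were.

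All 9 transcripts were present in every library (shown in the plot of FPKM by library). Lbr had the highest mean of the 9 in each stage, at up to 354 ± 10.5 FPKM in Poly (SD, n = 3), above 98.9% of the genes tested. Lmnb1 and Tmpo were among the first 4 in each stage. Lmnb2, Emd and Sun1 were low throughout, with stage means of 12.4 to 37.7 FPKM. Lmna moved furthest in the order, from the fourth of the 9 in Baso to the last in Ortho, where its mean and that of Sun1 differed by less than their SD. Summed over the 9, a Pro library held 894 to 918 FPKM, a Baso library 1026 to 1077, a Poly library 1072 to 1106 and an Ortho library 503 to 535.

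**Figure D1:**
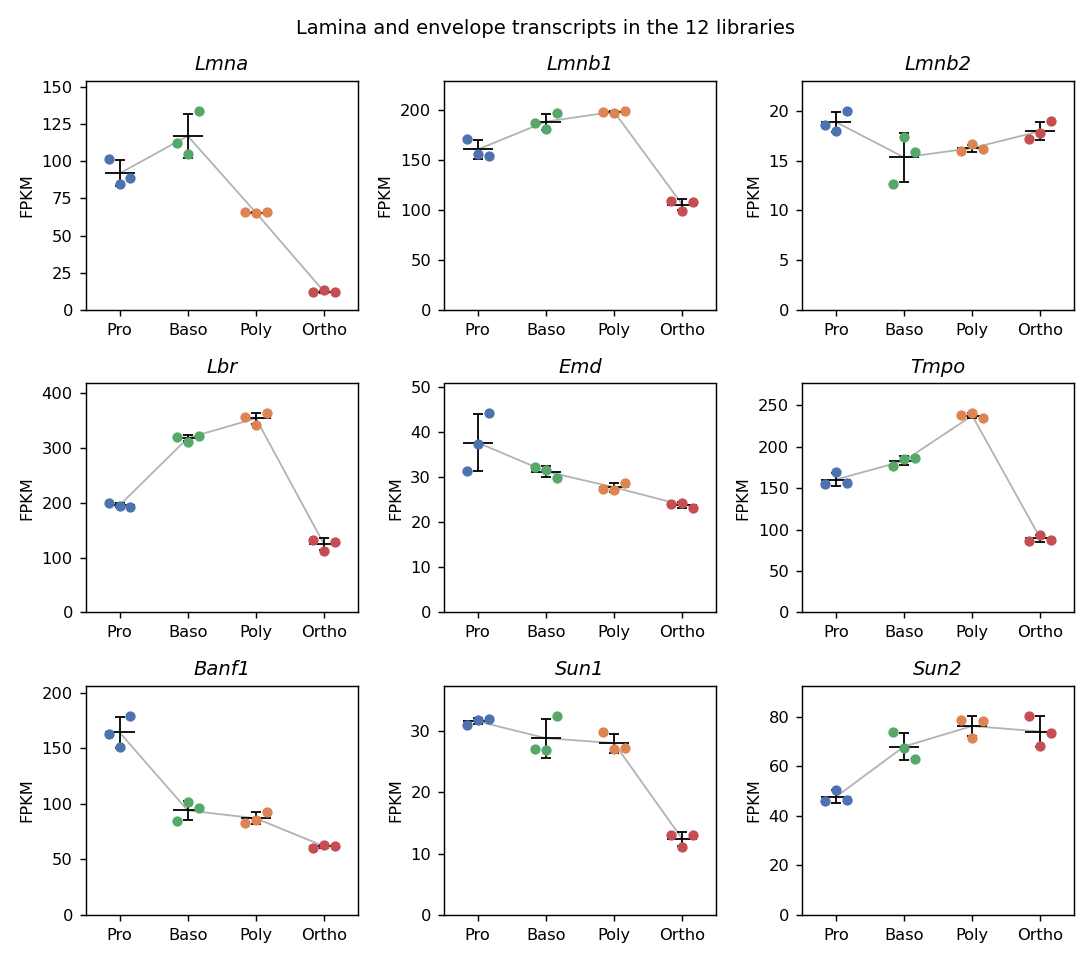
FPKM of the 9 genes (vertical axis, from 0, 1 panel a gene) in the 12 libraries by stage (horizontal axis); points are libraries, bars the stage mean and SD (n = 3), and the grey line joins the means. Lmna ended at 11.8 to 13.2 FPKM in Ortho, below each library of the other stages, while Sun2 stayed at 68.2 to 80.4 FPKM.

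Lmna, on chromosome 3 (mm10, 88480147 to 88509956, minus strand, up to 12 exons in a coding transcript), gives lamin A and lamin C by splicing, which a gene-level value cannot separate. Its FPKM was 102, 85.0 and 88.9 in Pro, 112, 105 and 134 in Baso, 65.9, 65.0 and 65.6 in Poly, and 11.8, 13.2 and 11.99 in Ortho. No libraries of 2 neighbouring stages overlapped. Such separation was common. It held for 61.1% of all genes tested between Pro and Baso, 36.4% between Baso and Poly and 42.6% between Poly and Ortho. Between Pro and Ortho it held for 76.8%. These shares also stand beside the separations given below for the other members. The level was higher in Baso than in Pro (log2 fold change 0.34 ± 0.10 (SE), adjusted p = 0.00978, limma on log2(FPKM + 1)), a difference that fell to 0.16 when libraries were rescaled to the same summed FPKM and then no longer passed the test. It fell from Baso to Poly by 0.82 on the log2 scale (limma, adjusted p = 0.000795) and from Poly to Ortho by 2.32 (limma, adjusted p = 2.08e-08), so that Ortho held 18.8% of the Poly level, 10.5% of the Baso level and 13.4% of the Pro level. Lmna exceeded 93.8% of the tested genes by its mean at the Pro stage and 65.3% at the Ortho stage. In bulk samples, fewer cells with a transcript and less of the transcript per cell cannot be told apart.

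Lmnb1, on chromosome 18 (mm10, 56707813 to 56753424, plus strand), encodes lamin B1. Its FPKM was 171, 156 and 154 in Pro, 186, 181 and 197 in Baso, 198, 197 and 199 in Poly, and 109, 99.1 and 108 in Ortho. All Ortho libraries lay below all others, and the highest Baso and the lowest Poly library were both at 197 FPKM. Lmnb1 was higher in Baso than in Pro (log2 fold change 0.23 ± 0.07 (SE), limma, adjusted p = 0.0116), did not differ past the threshold between Baso and Poly (0.07 ± 0.07, adjusted p = 0.501, limma), and fell in Ortho to 53.2% of Poly (-0.91 ± 0.07, limma, adjusted p = 1.09e-06). The Baso rise was 0.05 with libraries rescaled to the same sum, where it did not pass.

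Lmnb2, on chromosome 10 (mm10, 80901203 to 80918245, minus strand), encodes lamin B2 and was the lowest of the lamins until Ortho. Its FPKM was 18.6, 18.0 and 20.0 in Pro, 12.7, 17.4 and 15.9 in Baso, 15.9, 16.6 and 16.2 in Poly, and 17.2, 17.8 and 19.0 in Ortho. Pro and Ortho overlapped and did not differ past the threshold (log2 fold change -0.07 ± 0.10 (SE), limma, adjusted p = 0.559) in the values as deposited. Each of 3 other scalings called this difference, in opposite directions. Lmnb2 was lower in Ortho with libraries rescaled to the same sum (-0.42, limma, adjusted p = 0.00237), and higher without hemoglobin genes in the scaling (0.40, limma, adjusted p = 0.00347) or with libraries centred on their median (0.33, limma, adjusted p = 0.0126). The lower level in Baso than in Pro (-0.29, limma, adjusted p = 0.0284) turned to 0.01 without hemoglobin genes, and was lost without Baso replicate 1 (-0.17, limma, adjusted p = 0.108) or Pro replicate 3 (-0.25, limma, adjusted p = 0.0917). Neither later step passed the test for Lmnb2.

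The 3 lamin genes therefore did not keep their proportions, which can be read within a library without regard to how libraries are scaled (shown in the plot of lamin and SUN shares). From Pro through Baso and Poly to Ortho, Lmna made up 33.9% ± 1.07, 36.4% ± 2.03, 23.4% ± 0.104 and 9.11% ± 0.877 of the summed lamin FPKM (SD, n = 3). Lmnb1 held 59.2% ± 0.947, 58.8% ± 1.73, 70.8% ± 0.0719 and 77.6% ± 1.39 over the same stages. Lmnb2 held 6.99% ± 0.614, 4.80% ± 0.852, 5.82% ± 0.142 and 13.3% ± 0.713. The Lmna share thus fell at both later steps by more than the spread of the libraries. In each Ortho library Lmnb2 thus exceeded Lmna, which was the reverse of all 9 earlier libraries. Lmnb1 was 1.75 ± 0.0802 times Lmna in Pro and 8.58 ± 0.917 times Lmna in Ortho. Such shares and ratios between genes rest on the length used for each gene. Together the 3 genes came to 271 ± 17.7 FPKM at the Pro stage, 320.5 ± 23.0 at Baso, 279.7 ± 1.10 at Poly and 136 ± 4.81 at Ortho.

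**Figure D2:**
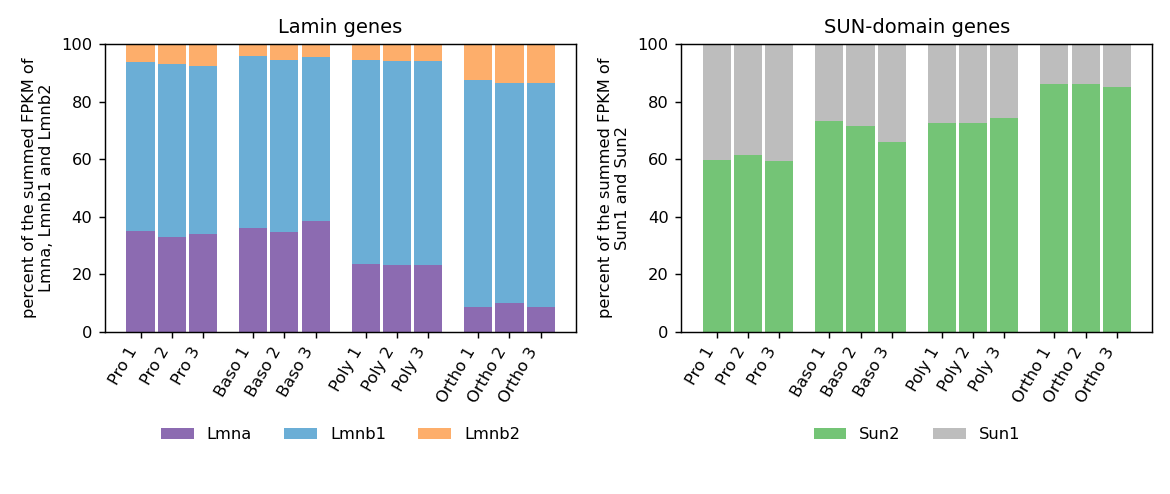
Left, share of Lmna, Lmnb1 and Lmnb2 in their summed FPKM (percent, 0 to 100) in each of the 12 libraries; right, share of Sun2 and Sun1 in theirs. Lmna took 32.8% to 38.6% in Pro and Baso libraries and 8.57% to 10.1% in Ortho libraries, while Sun2 went from 59.3% to 61.5% in Pro to 84.9% to 86.1% in Ortho.

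Among the inner membrane proteins, Lbr and Tmpo rose to Poly and then fell steeply. Lbr, on chromosome 1 (mm10, 181815335 to 181843046, minus strand), had an FPKM of 200.2, 195 and 192 in Pro, 320.5, 311 and 323 in Baso, 357, 343 and 363 in Poly, and 133, 112 and 128 in Ortho. The Ortho libraries lay below and the Baso and Poly libraries above all Pro libraries. Lbr rose from Pro to Baso (log2 fold change 0.70 ± 0.07 (SE), limma, adjusted p = 1.10e-05), where it was the largest rise of the 9, and the further step to Poly did not pass (0.15, limma, adjusted p = 0.169). Ortho held 35.1% of the Poly level (-1.51 ± 0.07, limma, adjusted p = 4.41e-08) and 63.5% of the Pro level. Beside Lmna, Lbr was 2.14 ± 0.163 times as abundant in Pro and 10.1 ± 1.42 times in Ortho (SD, n = 3).

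Tmpo, on chromosome 10 (mm10, 91147571 to 91181315, minus strand), encodes the LAP2 isoforms, some of which are anchored in the membrane and one of which is soluble, and these share the gene-level value. Its FPKM was 155, 169 and 157 in Pro, 177, 186 and 187 in Baso, 238, 240.2 and 234 in Poly, and 86.3, 93.9 and 87.9 in Ortho. No libraries of neighbouring stages overlapped, which at the 3 steps in turn was so for 61.1%, 36.4% and 42.6% of all genes tested. Tmpo was the only one of the 9 to rise at the step from Baso to Poly (log2 fold change 0.38 ± 0.06 (SE), limma, adjusted p = 0.00493), and Ortho then held 37.6% of the Poly level (-1.40 ± 0.06, limma, adjusted p = 2.96e-08). Its smaller rise from Pro to Baso (0.19, limma, adjusted p = 0.0213) was 0.01 with libraries rescaled to the same sum, and it lost the call without Pro replicate 3 (0.17, limma, adjusted p = 0.0573), Baso replicate 2 (0.18, limma, adjusted p = 0.0595) or Baso replicate 3 (0.18, limma, adjusted p = 0.0647).

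Emd, on the X chromosome (mm10, 74254687 to 74261548, plus strand), encodes emerin and had its highest mean in Pro and its lowest in Ortho. Its FPKM was 31.5, 37.5 and 44.2 in Pro, 32.3, 31.7 and 29.9 in Baso, 27.4, 27.1 and 28.9 in Poly, and 24.0, 24.4 and 23.2 in Ortho. Pro was the most spread of the stages and overlapped with Baso, while Poly and Ortho did not overlap. As deposited, no single step passed the test, and Ortho against Pro did (log2 fold change -0.63 ± 0.10 (SE), limma, adjusted p = 0.00016), though not without hemoglobin genes in the scaling (-0.15, limma, adjusted p = 0.191) or with median centring (-0.23, limma, adjusted p = 0.0677). The step from Poly to Ortho was -0.21 (limma, adjusted p = 0.168), and it passed when the later 3 stages were fitted with replicate number blocked (limma, adjusted p = 0.032). With libraries rescaled to the same sum, the steps from Pro to Baso (-0.42, limma, adjusted p = 0.00264) and from Poly to Ortho (-0.39, limma, adjusted p = 0.00763) both passed. Without Pro replicate 1 the step from Pro to Baso was -0.37 (limma, adjusted p = 0.00319), against -0.25 with all libraries (adjusted p = 0.0556).

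Banf1, on chromosome 19 (mm10, 5364638 to 5367168, minus strand, 3 exons), encodes the small factor that holds chromatin to the LEM-domain proteins when the envelope reforms. Its FPKM was 163, 151 and 179 in Pro, 84.8, 101 and 96.2 in Baso, 82.7, 85.2 and 93.1 in Poly, and 60.5, 63.0 and 62.0 in Ortho. All Pro libraries lay above all others and all Ortho libraries below, with Baso and Poly overlapping. Banf1 fell in the first step, in which Lmna, Lmnb1, Lbr and Tmpo rose (log2 fold change -0.80 ± 0.09 (SE), limma, adjusted p = 1.72e-05), and again from Poly to Ortho (-0.48 ± 0.09, limma, adjusted p = 0.00108), to 37.6% of the Pro level.

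The SUN-domain genes went in different directions. Sun1, on chromosome 5 (mm10, 139200637 to 139249840, plus strand, up to 23 exons), had an FPKM of 31.0, 31.7 and 31.9 in Pro, 27.0, 26.9 and 32.4 in Baso, 29.8, 27.0 and 27.2 in Poly, and 12.9, 11.1 and 13.1 in Ortho. As deposited, the first 3 stages did not differ past the threshold in any pair, and all Ortho libraries lay below. With libraries rescaled to the same sum, both Baso (-0.31, limma, adjusted p = 0.0247) and Poly (-0.34, limma, adjusted p = 0.0126) were lower than Pro. Ortho held 44.2% of the Poly level (log2 fold change -1.12 ± 0.09 (SE), limma, adjusted p = 2.24e-06) and 39.3% of the Pro level (-1.28, limma, adjusted p = 1.80e-07).

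Sun2, on chromosome 15 (mm10, 79724070 to 79742536, minus strand, 18 exons), had an FPKM of 45.9, 50.7 and 46.4 in Pro, 73.8, 67.4 and 62.9 in Baso, 78.9, 71.6 and 78.4 in Poly, and 80.4, 68.2 and 73.6 in Ortho. All Pro libraries lay below all others, and Baso, Poly and Ortho overlapped. Sun2 rose from Pro to Baso (log2 fold change 0.50 ± 0.08 (SE), limma, adjusted p = 0.000395), and none of Baso, Poly and Ortho differed from one another past the threshold as deposited. Ortho was higher than Baso without hemoglobin genes in the scaling (0.30, limma, adjusted p = 0.012) and with median centring (0.22, limma, adjusted p = 0.0448). As deposited, Sun2 was the only one of the 9 with a higher level in Ortho than in Pro (0.62 ± 0.08, limma, adjusted p = 3.67e-05). Sun2 took 60.2% ± 1.18 of the pair's FPKM in Pro and 85.7% ± 0.678 in Ortho (SD, n = 3), or 1.51 ± 0.0758 and 5.99 ± 0.322 times Sun1.

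The neutrophil markers and Sun2 both rose from Pro to Poly. In Poly and Ortho, replicate 2 was the lowest of the 3 for Sun2 (71.6 and 68.2 FPKM). The same held for the summed markers (15288 and 13590 FPKM), and for Lmnb1, Lbr and Sun1 of the other members. In Baso the lowest was replicate 3 for Sun2 (62.9 FPKM) and replicate 2 for the markers (11869 FPKM). In Pro the highest was replicate 2 for Sun2 (50.7 FPKM) and replicate 3 for the markers (8626 FPKM). Macrophage markers (10 genes, 5 tested, led by Cd68 and Csf1r, with C1qa, C1qb and C1qc under 1.1 FPKM in every library) summed to 34.1 to 40.0 FPKM in Pro and 70.1 to 90.0 in Ortho, and B cell markers (9 genes, led by Cd74 and Cd79b) to 91.3 to 131 and 209 to 264. T and NK cell markers (9 genes, 3 tested, led by Nkg7 and Klrd1) went from 24.5 to 33.6 FPKM in Pro to 43.4 to 48.0 in Ortho, with Cd3e and Cd3g at 0 in all Ortho libraries. Megakaryocyte markers (9 genes, led by Itga2b and Pf4) fell from 78.7 to 138 in Pro to 46.6 to 55.4 in Ortho, and stromal markers, led by Col1a1 and Pecam1, reached 169.9 in Pro replicate 2 and 14.8 to 44.2 elsewhere. Without that library no call of the 9 genes changed. From Poly to Ortho, 0 of the 10 neutrophil genes passed the test in limma, where 26.1% of all genes did. At an unadjusted p under 0.05 it was also 0, with a median of -0.10. At that step 2 of the 5 macrophage genes tested were higher, where 4.43% of all genes were. These were Cd68 (0.59, limma, adjusted p = 0.00118) and Csf1r (0.38, limma, adjusted p = 0.0315). Of 8 megakaryocyte genes tested 1 was lower, where 21.7% of all genes were, and no B cell, T and NK cell or stromal gene passed. The part of all these markers in the levels of the 9 genes was not tested.

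Counted together, none of the 9 genes changed by 2-fold or more at either of the first steps (shown in the plot of log2 fold changes by step). From Pro to Baso, 5 rose (Lmna, Lmnb1, Lbr, Tmpo and Sun2) and 2 fell (Lmnb2 and Banf1) at an adjusted p under 0.05 in limma, where 57% of all genes tested passed, 14.9% higher and 42.1% lower. None of these reached a 2-fold change, which 10.4% of all genes did. The median log2 fold change of the 9 was 0.19, against -0.23 over all genes tested. From Baso to Poly, 1 rose (Tmpo) and 1 fell (Lmna), where 12.4% of all genes passed, 6.58% higher and 5.77% lower, and none of the 9 reached 2-fold, which 0.516% of all genes did.

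From Poly to Ortho, 6 of the 9 fell and none rose at an adjusted p under 0.05 in limma (at an unadjusted p under 0.05 also 6 and 0), where 26.1% of all genes passed, 21.7% lower and 4.43% higher. Lmna, Lbr, Tmpo and Sun1 fell at least 2-fold, or 4 of 9, against 4.81% of all genes. That count depended on the scaling. Sun1 was under 2-fold without hemoglobin genes in the scaling (-0.99) and with median centring (-0.97), and Lmnb1 reached 2-fold with libraries rescaled to the same sum (-1.09). The median of the 9 was -0.91, against -0.08 over all genes tested. Lmnb2, Emd and Sun2 did not pass. Between the ends of the series, 7 of the 9 were lower in Ortho than in Pro and Sun2 was higher, where 75.9% of all genes passed (53.2% lower, 22.7% higher). Lmna, Banf1 and Sun1 were lower at least 2-fold, where 23.8% of all genes were, and the median of the 9 was -0.65, against -0.42 over all genes.

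**Figure D3:**
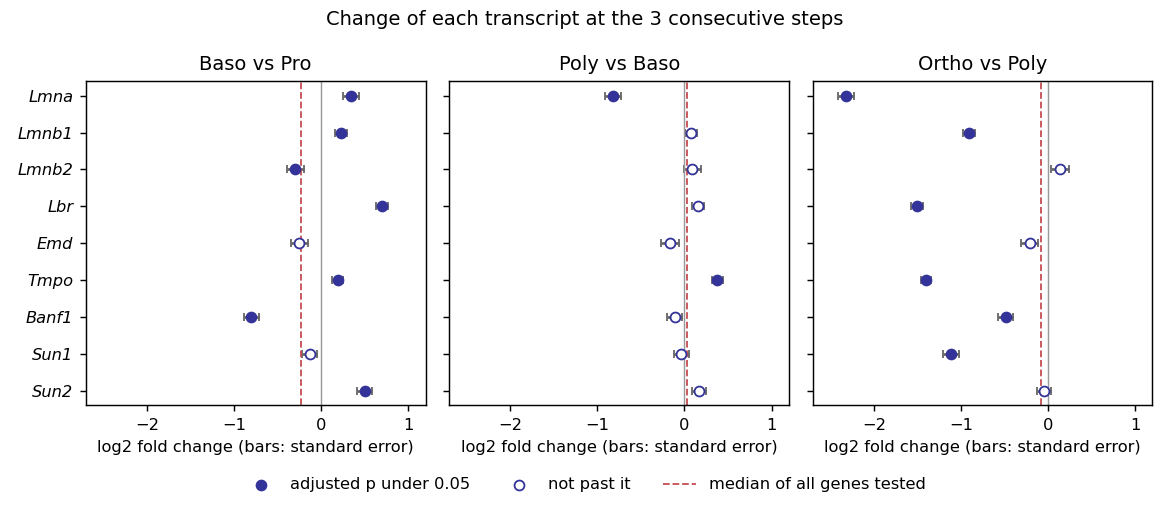
Log2 fold change on the log2(FPKM + 1) scale (horizontal axis) of each of the 9 genes at the 3 consecutive steps; bars are the standard error from limma, filled points passed an adjusted p of 0.05, and the dashed line is the median of all 12994 genes tested. Lmna (-2.32), Lbr (-1.51), Tmpo (-1.40) and Sun1 (-1.12) stand furthest left at the last step, where the median of all genes was -0.08.

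Since hemoglobin took more in Baso and Poly than in Pro, and most in Ortho, the values were set side by side under other scalings (shown in the plot of 4 scalings). Without hemoglobin genes in the scaling, the median of all genes moved from -0.42 to -0.03, and the share of 2-fold calls that were higher in Ortho than in Pro moved from 21% to 63.4%. Lmna was then at -2.32 in Ortho against Pro, Banf1 at -0.90, Sun1 at -0.82 and Tmpo at -0.35, all with an adjusted p under 0.05 in limma, and Sun2 at 1.11. Lbr, at -0.16, still passed, and Lmnb1, at -0.11, did not (limma, adjusted p = 0.161). Rescaled to the same sum with hemoglobin genes, Lmna was at -3.15, Lmnb1 at -0.97 and Sun2 at 0.26. In all 4 scalings 8 of the 9 kept their sign between Pro and Ortho, Lmnb2 being the exception, and 6 passed in each (Lmna, Lbr, Tmpo, Banf1, Sun1 and Sun2). From Poly to Ortho the test was passed with the same sign in all 4 scalings by Lmna, Lmnb1, Lbr, Tmpo, Banf1 and Sun1. From Pro to Baso this was so for Lbr, Banf1 and Sun2.

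**Figure D4:**
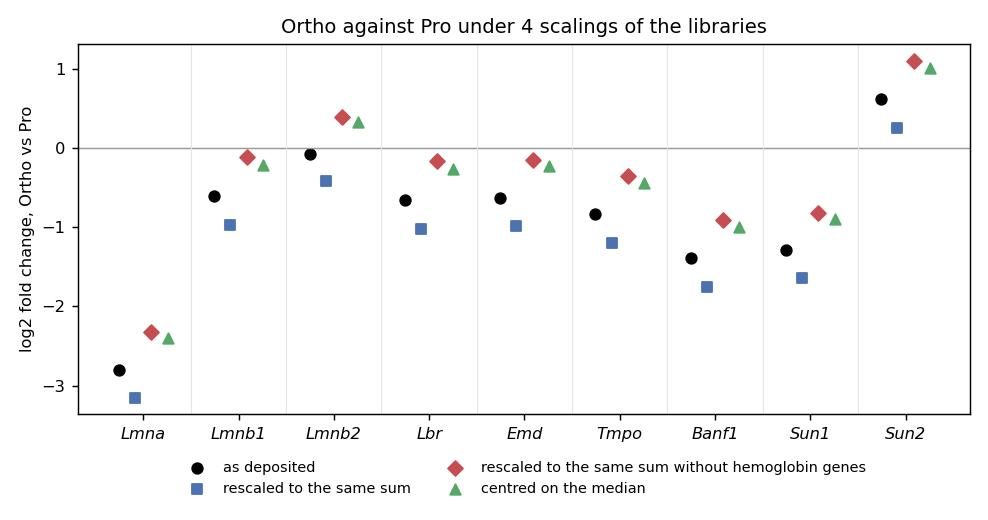
Log2 fold change of Ortho against Pro (vertical axis) for the 9 genes under 4 scalings of the libraries; each symbol is 1 scaling. Lmna lay between -3.15 and -2.32 and Sun2 between 0.26 and 1.11, whereas Lmnb2 lay on both sides of 0, from -0.42 to 0.40.

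Promoter windows are shown for 2 pairs. Lbr and Tmpo both had their highest mean in Poly and fell in Ortho, though their main rises came at different steps, and Sun1 and Sun2 parted. Each is the 250 bases before a start of transcription in RefSeq (GRCm38.p6), written along the gene's strand. Windows of 8 of the 9 genes were matched in the table used here. Tmpo and Sun1 each had a second start there, at 91170550 and 139215158, whose windows are not shown. Capitals mark the letters searched on both strands, so that each also appears as its reverse complement. These were CCAAT, the GC box GGGCGG, the box CACCC bound by Klf factors, the GATA motif AGATAA, and 3 E2F-like motifs, namely TTCCCGC as well as TTGGCGC as well as TTCGCGC.
Lbr (chr1:181842402-181842651, minus strand): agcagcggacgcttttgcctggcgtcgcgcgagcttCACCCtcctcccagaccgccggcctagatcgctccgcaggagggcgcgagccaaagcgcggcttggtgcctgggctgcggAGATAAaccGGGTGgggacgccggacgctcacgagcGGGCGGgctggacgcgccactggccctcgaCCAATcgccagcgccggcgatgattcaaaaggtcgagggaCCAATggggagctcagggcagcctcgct
Tmpo (chr10:91171620-91171869, minus strand): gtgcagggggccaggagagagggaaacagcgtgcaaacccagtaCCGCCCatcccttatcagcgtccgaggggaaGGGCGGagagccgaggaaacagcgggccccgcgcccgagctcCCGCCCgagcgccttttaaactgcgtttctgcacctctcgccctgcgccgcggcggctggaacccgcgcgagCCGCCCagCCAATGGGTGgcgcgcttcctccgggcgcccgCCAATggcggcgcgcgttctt
Sun1 (chr5:139200387-139200636, plus strand): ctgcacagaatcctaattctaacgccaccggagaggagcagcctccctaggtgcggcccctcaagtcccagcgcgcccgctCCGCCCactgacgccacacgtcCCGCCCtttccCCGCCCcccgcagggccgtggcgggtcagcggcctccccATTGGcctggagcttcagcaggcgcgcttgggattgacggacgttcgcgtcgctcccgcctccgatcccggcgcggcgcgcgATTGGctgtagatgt
Sun2 (chr15:79742537-79742786, minus strand): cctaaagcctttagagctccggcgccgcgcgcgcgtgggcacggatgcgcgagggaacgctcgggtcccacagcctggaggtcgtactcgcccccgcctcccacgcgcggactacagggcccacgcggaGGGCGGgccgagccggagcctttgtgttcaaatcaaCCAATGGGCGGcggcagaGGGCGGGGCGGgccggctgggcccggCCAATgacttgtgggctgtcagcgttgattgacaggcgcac
All 4 windows shown held CCAAT 2 times, Lbr at 68 to 64 and 28 to 24 bases before the start, Tmpo at 53 to 49 and 21 to 17, Sun1 at 97 to 93 and 15 to 11 (on the other strand), and Sun2 at 85 to 81 and 41 to 37. Of 32851 windows in the table, 33.8% held CCAAT at least once and 10.1% at least 2 times. No window of the other members searched held CCAAT 2 times. That of Emd held it 1 time, as did 1 window each of Lmna and Banf1, and those of Lmnb2 lacked it. GGGCGG was found in the 4 windows shown and in 32.7% of all windows. Lbr alone of the 4 held AGATAA, at 134 to 129, as did 9.99% of all windows, and Lbr and Tmpo held CACCC, as did 52.0%. None of the E2F-like letters was in the 4 windows shown. The windows of the second starts differed, as that of Tmpo held TTCCCGC 2 times, at 194 to 188 and 83 to 77, and no CCAAT, and that of Sun1 held CCAAT 1 time. No annotated exon overlapped the windows of Lbr, Tmpo and Sun1, and that of Sun2 held part of the noncoding Gm16576 on the other strand. A match of letters is a description of the window and not a binding site.

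Genes that work with the lamina were counted over 6 further lists of 42 genes, of which 41 were tested. Between Pro and Ortho 28 were lower and 6 higher at an adjusted p under 0.05 in limma, where 53.2% of all genes tested were lower and 22.7% higher. By at least 2-fold, 10 of the 41 were lower, which was close to the 23.8% of all genes that were. At the same threshold 2 of the 41 were higher, beside 823 of all 12994 genes. Their median was -0.62, against -0.42 over all genes (shown in the plot of wider lists). From Poly to Ortho 17 were lower and none higher (limma; 19 and 1 at an unadjusted p under 0.05), where 21.7% of all genes were lower and 4.43% higher. Of these, 5 were lower by at least 2-fold, against 4.81% of all genes, and the median was -0.16, against -0.08 over all genes and -0.91 for the 9 lamina and envelope genes.

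Among 9 genes listed as partners at the inner nuclear membrane, 4 were lower and 1 higher in Ortho than in Pro, beside 53.2% and 22.7% of all genes. Ankle1, a nuclease with a LEM domain and the most abundant of the list, had 39.8 ± 2.48 FPKM in Pro, 56.8 ± 0.665 in Poly and 10.9 ± 0.466 in Ortho (SD, n = 3; Ortho against Poly -2.28, limma, adjusted p = 7.52e-09). Its mean was highest in Poly, as for Lbr and Tmpo. Lemd2 (-1.09) and Lemd3 (-0.71), both LEM-domain proteins, and Tmem201 (-0.62) were lower in Ortho than in Pro, the last not past the threshold without hemoglobin genes in the scaling. Of 8 nesprin and torsin genes, 7 were tested, and 3 were higher and 3 lower in Ortho than in Pro, beside 22.7% and 53.2% of all genes. Syne2, a nesprin that SUN proteins hold, rose between Pro and Ortho, at 1.24 ± 0.545 and 5.31 ± 1.85 FPKM (1.47, limma, adjusted p = 0.000182), while Syne3, another nesprin, was at -0.71, Tor3a at 0.86 and Tor1b at -0.83. Without hemoglobin genes in the scaling Syne3 was at -0.26 and did not pass (limma, adjusted p = 0.0864). Tor1a, the most abundant of that list, was at -0.33, which turned to 0.14 without hemoglobin genes in the scaling.

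Of 5 enzymes that process lamins after translation, 4 were lower in Ortho than in Pro and none higher as deposited, where 53.2% of all genes were lower. Farnesyltransferase subunit Fnta went from 37.4 ± 4.53 FPKM in Pro to 19.6 ± 2.47 in Baso and 17.9 ± 1.62 in Ortho (SD, n = 3; Ortho against Pro -1.02, limma, adjusted p = 1.82e-05). The protease Rce1 (-1.05), the methyltransferase Icmt (-0.63) and the other farnesyltransferase subunit Fntb (-0.53) were lower in Ortho than in Pro, and Zmpste24, which cuts prelamin A, was at 0.04 and did not pass. Without hemoglobin genes in the scaling, 2 of the 5 were lower (Fnta and Rce1), Icmt and Fntb did not pass, and Zmpste24 was higher (0.51, limma, adjusted p = 0.000235). Zmpste24 was also higher with median centring (0.43, limma, adjusted p = 0.000705), and lower with libraries rescaled to the same sum (-0.32, limma, adjusted p = 0.0176).

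Of 10 genes for breakdown and resealing of the envelope, 9 were lower in Ortho than in Pro and 1 was higher, where 53.2% and 22.7% of all genes were. Cdk1, the mitotic kinase that phosphorylates lamins, went from 103 ± 44.2 FPKM in Poly to 19.2 ± 3.33 in Ortho (SD, n = 3; -2.30, limma, adjusted p = 0.00018). Vrk1, the kinase that releases the Banf1 product from DNA, was at -1.25 in Ortho against Pro, Vps4a, an ATPase of membrane resealing, at -0.98, and the lamin kinase gene Prkcb at 1.08. Chmp4b, the most abundant, was at -0.38, which turned to 0.11 without hemoglobin genes in the scaling. The cell cycle genes fell at the same step as Lmna, Lbr, Tmpo and Sun1. All 11 proliferation genes listed were lower in Ortho than in Poly at an adjusted p under 0.05 (limma), where 21.7% of all genes were. Their summed FPKM was 2157 to 2277 in Poly and 722 to 778 in Ortho. From Baso to Poly, 4 of the 11 were already lower and 1 was higher, beside 5.77% and 6.58% of all genes. The part of the proliferation genes in the levels of the 9 genes was not tested.

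Of 7 genes for chromatin proteins found at the lamina, 5 were lower and 1 higher in Ortho than in Pro, next to shares of 53.2% and 22.7% over all genes. Cbx5, the heterochromatin protein that binds Lbr, went from 45.4 ± 2.24 FPKM in Poly to 15.9 ± 1.37 in Ortho (SD, n = 3; -1.46, limma, adjusted p = 1.84e-07), and the related Cbx3, the most abundant of the list, from 107 ± 2.30 to 48.1 ± 1.07 (-1.14, limma, adjusted p = 1.36e-06). Cbx1 (-1.14) and the deacetylase Hdac3 (-0.98) were lower in Ortho than in Pro. The 3 nuclear basket genes were lower in Ortho than in Pro, Nup50 at -1.25, Tpr at -0.94 and Nup153 at -0.25, the last of which turned to 0.23 without hemoglobin genes in the scaling.

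**Figure D5:**
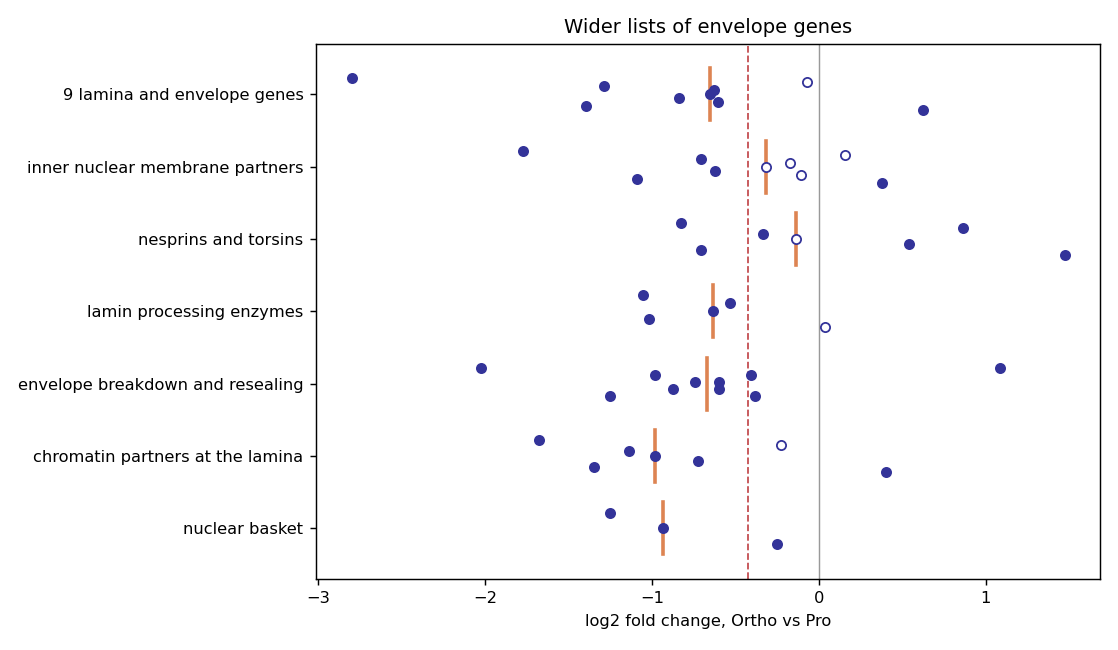
Log2 fold change of Ortho against Pro (horizontal axis) for the 9 lamina and envelope genes and 6 further lists (rows); each point is a gene, filled where the adjusted p was under 0.05 in limma, the short bar is the median of the list and the dashed line the median of all genes tested (-0.42). Lmna, at -2.80, lies furthest left of all the genes drawn, and Syne2, at 1.47, furthest right.

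The courses of the 9 genes were compared with those of all 6010 genes of at least 10 FPKM on average, as the root mean square difference of log2(FPKM + 1) over the 12 libraries after each gene was centred on its own mean. This difference grows with the size of the changes, so the number of genes within a fixed distance depends on a gene's range. Lmna had the widest range of the 9 (-3.14 in Ortho against Baso), and 2 of 6010 genes lay within 0.2 of it. Nearest to Lmna were Suox (0.186), Gpsm2 (0.186) and, beyond that distance, Tgm2 (0.246), the transglutaminase gene that the study is about. The study reports a rise of TGM2 RNA and protein in fetal liver cells, which are other cells than the bone marrow stages used here. Lbr had 43 genes within 0.2, led by Map2k3 (0.0906), Rhd (0.092), a blood group antigen of the red cell membrane, and Arhgap11a (0.101). Tmpo had 57, led by Mast2 (0.117), Lmf2 (0.12) and Nfyb (0.125), which encodes a subunit of a CCAAT-binding factor. For the other members 206 to 645 genes lay within that distance. Nearest were Ctcf, Socs4 and Pdpk1 to Lmnb1, Arl6ip5, Mgat2 and Mcrip1 to Lmnb2, Hadhb, Ndufa3 and Med16 to Emd, Rnps1, Cxxc1 and Hnrnpll to Banf1, Gpx4, Zw10 and Mad2l1 to Sun1, and Zfand3, Vasp and Palm to Sun2. Among themselves, Lmnb1 and Tmpo were the closest pair (0.195), then Lbr and Tmpo (0.205), and Lmna and Sun2 the furthest apart (1.38).

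Of the 9 genes, 6 share bases with another annotated gene. Lbr overlaps Dnah14, Tmpo Gm26765, Banf1 Eif1ad, Sun1 4930520M14Rik and Sun2 Gm16575 on the opposite strand, while Lbr also overlaps the rRNA gene Gm26004 and Emd the pseudogene Gm14686 on the same strand. Whether strand was used in counting is not given in the sources used here, so reads of these pairs cannot be told apart where they overlap.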

How the data were processed

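RNA-seq libraries of sorted mouse erythroblasts were made in 3 replicates for each of 4 stages, 12 in all. The labels describe Trizol extraction and the NEBNext Ultra kit, while the study's methods describe cell lysates and the KAPA Hyper Prep kit. The authors trimmed reads with cutadapt and Trimmomatic, aligned them to mm10 using HISAT2 and counted them using featureCounts. The deposited values are 1 FPKM per gene and library, calculated by the authors; versions and annotation release are not given in the sources used here. Depth is unknown.

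Of 29839 lines, 1 repeated identifier was removed. The 12994 genes that reached an FPKM of 1 in 3 or more libraries were tested with limma 3.58.1 (R 4.3.3) on log2(FPKM + 1), with a variance trend and all 12 libraries in one model, two-sided, with Benjamini-Hochberg adjustment over all genes. The authors' DESeq2 test on counts was not repeated on FPKM. Fold changes are on the log2(FPKM + 1) scale and understate low genes. The model was tested on simulated data. Positions come from GENCODE M21 and promoter sequences from RefSeq (Python 3.11.15). With 3 libraries a stage, an exact permutation test cannot give a p below 0.1, so none was used for single genes.

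The 9 genes, the lists and the tests were chosen with earlier results of these data known. Named genes were all 9, up to 4 genes of each further list with the largest difference between Ortho and Pro at an adjusted p under 0.05 and the most abundant, the 2 most abundant markers of each other cell type, and the 3 genes most like each of the 9. A further list of genes is not reported here. Alas2, Klf1 and Zmpste24 were named after their values were seen. Same-numbered libraries of Baso, Poly and Ortho deviated together from their stage means (correlations of 0.156 to 0.319 across genes; 0.00524 to 0.0968 for pairs with Pro), a pairing that comes from the values alone, since the labels give no source for it. Alternatives were other pseudocounts (0.1 and 5), filters, scalings, models, a replicate block, calls on the adjusted p alone and fits without each library in turn.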

Additional observations from a re-analysis of the deposited data

How the results depend on the processing

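Of 414 log2 fold changes of the 9 genes set against the main fit with all libraries kept, 386 kept their direction and side of the threshold, 11 changed sign, 10 lost and 7 gained the call. Of the 414, 36 were the main values on the adjusted p alone, which are the same by construction. Fits that changed only the filter, the variance trend, the replicate block or the stages fitted kept the stage means, so no sign could change. The sign changes all came from scalings. They numbered 5 without hemoglobin genes, 5 with median centring and 1 with libraries rescaled to the same sum. The number of the 9 changed at least 2-fold between Pro and Ortho was 5 with libraries rescaled to the same sum, against 3. It was 2 without hemoglobin genes or with median centring, where Lmna stayed lower by 2-fold, Sun2 became higher by 2-fold (1.11 and 1.02), and Banf1 (-0.90 and -0.996) and Sun1 (-0.82 and -0.89) were under 2-fold. From Pro to Baso the number was 1 (Lbr, 1.01) without hemoglobin genes in the scaling, against 0. From Poly to Ortho, Sun1 was under 2-fold without hemoglobin genes (-0.99) or with median centring (-0.97). Lmnb1 reached 2-fold at that step with libraries rescaled to the same sum (-1.09). On the adjusted p alone, the counts were 7 from Pro to Baso, 2 from Baso to Poly and 8 from Pro to Ortho. Signs turned with libraries rescaled to the same sum for Lmnb2 from Poly to Ortho (-0.043). Without hemoglobin genes, signs turned from Pro to Baso for Lmnb2 (0.0054), Emd (0.059) and Sun1 (0.17), from Poly to Ortho for Sun2 (0.098) and from Pro to Ortho for Lmnb2 (0.40). With median centring the same values were 0.0029, 0.048, 0.16, 0.10 and 0.33. The cause was not tested. Leaving out 1 library left the counts at 0, 0, 4 and 3, and turned 3 differences that did not pass the test: Lmnb2 from Baso to Poly ranged from -0.032 (without Baso replicate 1) to 0.18, Sun1 at that step from -0.079 to 0.050 (without Baso replicate 3), and Sun2 from Poly to Ortho from -0.10 to 0.013 (without Ortho replicate 2). With replicate numbers blocked in the fit of Baso, Poly and Ortho, which the values pair, the call of Emd from Poly to Ortho (-0.21) was gained, and no other call of the 9 changed; the counts stayed at 0 and 4. Over all genes, calls from Pro to Baso, Baso to Poly, Poly to Ortho and Pro to Ortho numbered 1347, 67, 762 and 3915, with a pseudocount of 5 598, 21, 439 and 2088, and on the adjusted p alone 7405, 1605, 3397 and 9857; from Baso to Poly a pseudocount of 0.1 gave 122. Unknown depth leaves no counting error for any of the 9, among them Lmna in Ortho, where its mean was the lowest.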
